A study of Mus musculus with 16 samples.

Results

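The genes that copy DNA were followed in cDC1, the type 1 conventional dendritic cells, which present antigen from dead cells to CD8 T cells. The set of 44 genes was written as a list of DNA replication and S-phase genes, each read by the brightest probe set that carries its symbol alone, and all 44 were measured among 19938 genes. The cells were sorted from digested inguinal lymph nodes of C57BL/6 mice 6 days after injection of regressor tumours into the back flank. There were 4 groups of 4 arrays. KO draining cDC1 came from Wdfy4 knockout mice, from the node that drains the tumour. Het draining cDC1 came from the same node in mice heterozygous for Wdfy4, the genotype that KO cells were set against. KO non-draining and Het non-draining cDC1 came from the node of the flank that does not drain the tumour, in mice of these genotypes. Every mouse thus carried a tumour, and no group was wild-type or tumour-free. The labels describe draining cells as activated and non-draining cells as unactivated, and they leave unsaid whether each array stands for another mouse, so p-values measure the spread between these arrays, which may be technical.

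A cell that prepares to divide loads the ring-shaped MCM2-7 helicase onto replication origins, with the origin recognition complex, CDC6 and CDT1 as loaders and geminin as the brake on CDT1. At the start of S phase, kinases and the factors CDC45, GINS and MCM10 turn the loaded rings into active helicases, and primase, polymerases, the PCNA clamp and ligase copy the opened strands while ribonucleotide reductase and thymidylate enzymes supply the building blocks. E2F factors, released when cyclin-dependent kinases inactivate the RB proteins, drive many of these genes together, so their transcripts are commonly read as a sign of cells in cycle. Dendritic cells of lymphoid organs are renewed from blood-borne precursors, and some of them still divide in the tissue.

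Levels are RMA intensities on a linear scale, and differences are log2 differences of intensity + 1 from a limma fit of all 16 arrays, with standard errors. The arrays had median intensities of 38.6 to 40.8. Wdfy4, the gene knocked out, averaged 2252 ± 411 in KO draining and 2957 ± 433 in Het draining arrays, and 2375 ± 557 in KO non-draining and 2804 ± 549 in Het non-draining arrays (SD, n = 4 each). Groups overlapped in both nodes, and the labels do not say which part of the gene is deleted, so this does not check the genotype labels. The 10 cDC1 markers had group means from 211 for Itgae to 3987 for Naaa, and no threshold of detection was set for any marker. Group means of T cell markers ran from 52.3 for Themis to 614 for Cd3g, and those of B cell markers from 31.2 (Ms4a1) to 356 (Cd37). Macrophage and monocyte markers ran from 17.7 (Mertk) to 623 (Lyz2), and plasmacytoid dendritic cell markers from 74.2 (Siglech) to 916 (Bst2). Plasma cell markers ran from 18.3 (Tnfrsf17) to 145 (Irf4), and NK cell markers from 10.3 (Klrb1c) to 52.5 (Eomes). No gene of the 19938 passed an adjusted p of 0.05 in limma (Benjamini-Hochberg) in any of the 5 comparisons below, a share of 0.0%, and no replication gene did so (adjusted p of 1.00 for each in all 5). Counts at an unadjusted limma p under 0.05 are therefore given as a description beside the same count over all genes, and the genes given array by array are Mcm2 to Mcm7, Pcna, Rrm2 and the gene of smallest p for each role in each comparison.

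Within Het cells, most replication genes stood higher in the tumour-draining node. Of the 44 genes, 40 had a positive draining minus non-draining difference and 4 a negative one, with a median of 0.24, where 52.8% of all genes were positive, 47.2% were negative and their median was 0.01. An unadjusted p under 0.05 was reached by 12 replication genes, each higher in the draining node, where 3.29% of all genes reached it, 1.93% higher and 1.35% lower. The groups did not overlap for 7 of the 44 (Mcm4, Mcm6, Cdc45, Prim1, Lig1, Cdc25a and Chaf1b), all higher in draining arrays, where 1.40% of all genes did so and 0.998% lay lower without overlap. The largest differences were those of the primase gene Prim1 (0.72 ± 0.19), the ribonucleotide reductase gene Rrm2 (0.70 ± 0.20), the helicase gene Gins1 (0.56 ± 0.28) and the methylation maintenance gene Uhrf1 (0.55 ± 0.18). Genes below 0 were Rfc5 (-0.19), E2f2 (-0.09), Orc6 (-0.09) and Pold1 (-0.01). The arrays read whole sorted populations, so more cycling cells and more RNA per cell cannot be told apart.

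Within KO cells, the set was divided. Of the 44 genes, 26 had a positive draining minus non-draining difference, where 50.7% of all genes did and 49.3% were negative, and the median was 0.01 against 0.00 over all genes. Only Rrm2 (0.50 ± 0.20) had an unadjusted p under 0.05, where 2.11% of all genes did, 1.14% higher and 0.973% lower. Rrm2 and Lig1 were higher in draining arrays without overlap, where 0.848% of all genes were higher and 0.592% lower in that way. The median moved between -0.03 and 0.06 when single arrays were left out. The 1 gene under 0.05 became 0 without KO draining 3, where 4.06% of all genes were under 0.05. The count became 2 without KO draining 4, KO non-draining 2, Het draining 2, 3 or 4, or Het non-draining 2. In these settings 2.05% to 3.33% of all genes were under 0.05. Standard errors of single genes ran from 0.10 to 0.28.

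The plot of node differences sets both genotypes side by side for every gene. A test of the difference between them is the interaction, the draining minus non-draining difference of KO cells minus that of Het cells. It was negative for 38 of 44 genes, with a median of -0.23, where 52.3% of all genes were negative, 47.7% were positive and their median was -0.01. It had an unadjusted p under 0.05 for 6 genes, all negative, where 2.32% of all genes had one, 1.33% negative and 0.993% positive. These 6 were Cdc25a (-0.73 ± 0.18), Mcm7 (-0.53 ± 0.20), Prim1 (-0.68 ± 0.27), Mcm6 (-0.44 ± 0.20), Chaf1b (-0.44 ± 0.20) and Uhrf1 (-0.55 ± 0.26). The count was 2 (2.13% of all genes) and the median -0.15 without Het draining 2. Without KO non-draining 1, 2 or 4 the count was 3, with 2.03% to 2.42% of all genes. Marker lists of the sorted cells and of other cells were read in the same test. An unadjusted p under 0.05 was reached by 1 of 11 T cell markers and by no cDC1 or B cell marker, where 2.32% of all genes had one. The interaction was negative for 9 of 10 cDC1 markers (median -0.26), positive for 11 of 11 T cell markers (median 0.69) and negative for 8 of 11 B cell markers (median -0.20), and the part of these shifts in the interaction of the 44 genes was not tested.

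**Figure D1:**
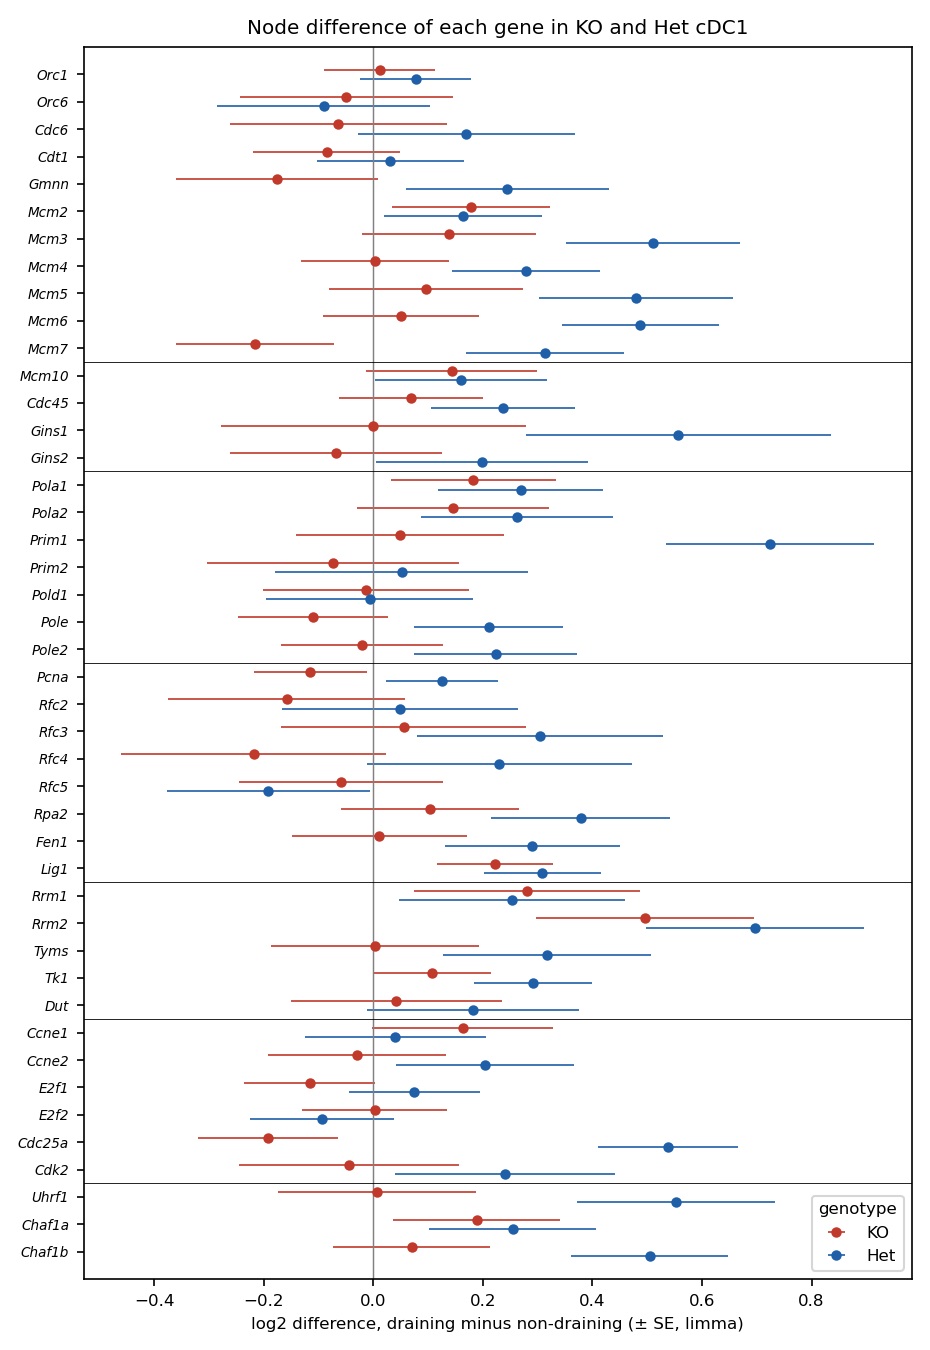
Log2 difference between draining and non-draining arrays for each of the 44 genes (x axis, ± SE from limma), for KO cells in red and Het cells in blue, with lines between role groups. Het points lie right of 0 for 40 genes, up to 0.72 for Prim1, while KO points spread around 0 from -0.22 for Rfc4 to 0.50 for Rrm2.

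Arrays of a group differed among themselves, and the Het draining group most. Counting how many of the 44 genes lay above their own mean over the 16 arrays gave 18, 25, 30 and 22 in KO draining arrays 1 to 4, and 29, 40, 39 and 14 in Het draining arrays. The same count was 17, 25, 16 and 28 in KO non-draining arrays and 19, 8, 12 and 10 in Het non-draining arrays. Het draining 2 and 3 thus had nearly the whole set above its mean, Het draining 4 had fewer than any KO array, and all Het non-draining arrays had fewer than 22 genes above. The median deviation was 0.14, 0.30, 0.15 and -0.11 in Het draining arrays and -0.03, -0.18, -0.11 and -0.12 in Het non-draining arrays, which overlap only through Het draining 4. Without Het draining 4 the median node difference in Het cells was 0.31, and over all single arrays left out it ran from 0.21 to 0.31. In these settings 8 to 15 genes had an unadjusted p under 0.05, where 2.92% to 4.86% of all genes had one. Taking only arrays 1 and 2 of each group gave a median of 0.30 and 15 genes, where 3.15% of all genes were under 0.05, and taking only arrays 3 and 4 gave 0.17 and 8 genes, where 4.73% of all genes were.

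**Figure D2:**
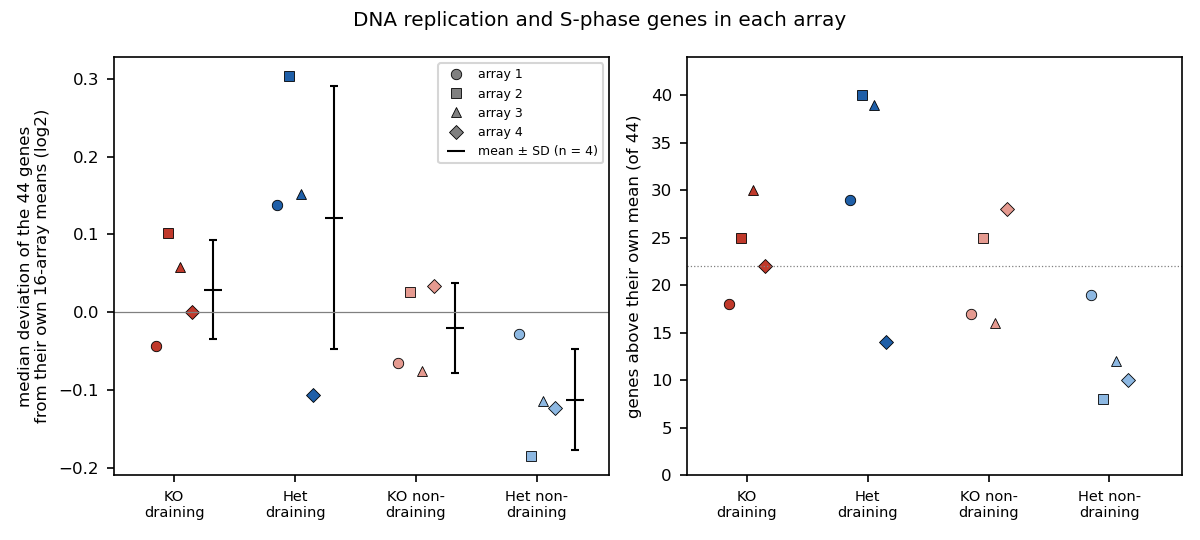
Left, the median deviation of the 44 genes from their own means over 16 arrays (log2) in each array, with the group mean ± SD (n = 4). Right, how many of the 44 lie above their own mean, with a dotted line at 22. Het draining 2 and 3 reach 40 and 39 genes, and Het non-draining arrays lie between 8 and 19.

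All 6 MCM2-7 helicase genes were higher in draining than in non-draining Het arrays, with a median difference of 0.40. An unadjusted p under 0.05 was reached by Mcm3, Mcm5, Mcm6 and Mcm7, where 3.29% of all genes reached it. In KO cells 5 of 6 were positive, with a median of 0.07 and none under 0.05, where 2.11% of all genes were. Mcm6 gave 264, 289, 228 and 255 in KO draining and 235, 327, 232 and 207 in Het draining arrays (1 to 4, in order), and 249.7, 298, 206 and 252 in KO non-draining and 179, 148, 176 and 203 in Het non-draining arrays. Every Het non-draining value of Mcm6 lay below every value of the other 3 groups, so that KO non-draining cells exceeded Het non-draining cells (0.50 ± 0.14) and Het draining cells exceeded Het non-draining cells (0.49 ± 0.14). The difference between the nodes in KO cells was 0.05 ± 0.14.

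Mcm3 gave 241, 211, 189.9 and 188 in KO draining and 240.5, 253, 226 and 189.8 in Het draining arrays, and 155, 239, 169.6 and 197 in KO non-draining and 194, 119.7, 147 and 184 in Het non-draining arrays. Its node difference was 0.14 ± 0.16 in KO and 0.51 ± 0.16 in Het cells, and the Het groups overlapped by Het draining 4. Mcm5 gave 228, 280.2, 235 and 204 in KO draining and 317, 378, 221 and 196 in Het draining arrays, and 209.7, 248, 208 and 217 in KO non-draining and 245, 166, 179.8 and 187 in Het non-draining arrays. The first pair of Het draining arrays was far above the second, and the node difference was 0.10 ± 0.18 in KO and 0.48 ± 0.18 in Het cells.

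Mcm7 gave 83.5, 77.2, 88.1 and 76.8 in KO draining and 123, 131, 107 and 75.2 in Het draining arrays, and 84.4, 95.0, 101 and 99.0 in KO non-draining and 86.2, 73.8, 83.5 and 102 in Het non-draining arrays. Its KO draining values were close together, while Het draining values ran from 75.2 to 131, and the KO minus Het difference of the draining node, -0.39 ± 0.14, was the most negative of the 44. The node difference of Mcm7 was -0.22 ± 0.14 in KO and 0.31 ± 0.14 in Het cells. Mcm4 gave 123, 145, 127 and 125 in KO draining and 124, 129, 147 and 150.4 in Het draining arrays, and 117, 181, 118 and 113 in KO non-draining and 117, 96.7, 116 and 124 in Het non-draining arrays. Het draining and non-draining values of Mcm4 came close but did not overlap (0.28 ± 0.13), and KO non-draining 2 stood far above the rest of its group. Mcm2 gave 316, 352, 261 and 265 in KO draining and 277, 332, 279 and 217 in Het draining arrays, and 223, 337, 236 and 262 in KO non-draining and 267, 245, 237 and 227 in Het non-draining arrays. Mcm2 overlapped between all groups, and its node difference was nearly the same in KO (0.18 ± 0.14) and Het cells (0.16 ± 0.14), with an interaction of 0.02 ± 0.20.

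None of the loader genes of the helicase (Orc1 and Orc6 of the origin recognition complex, Cdc6 and Cdt1), nor the geminin gene Gmnn, had an unadjusted p under 0.05 in any comparison. In Het cells their node differences ran from -0.09 for Orc6 to 0.24 for Gmnn, and in KO cells from -0.18 for Gmnn to 0.01 for Orc1. Orc1 was read between 12.2 and 17.3 over the 16 arrays.

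**Figure D3:**
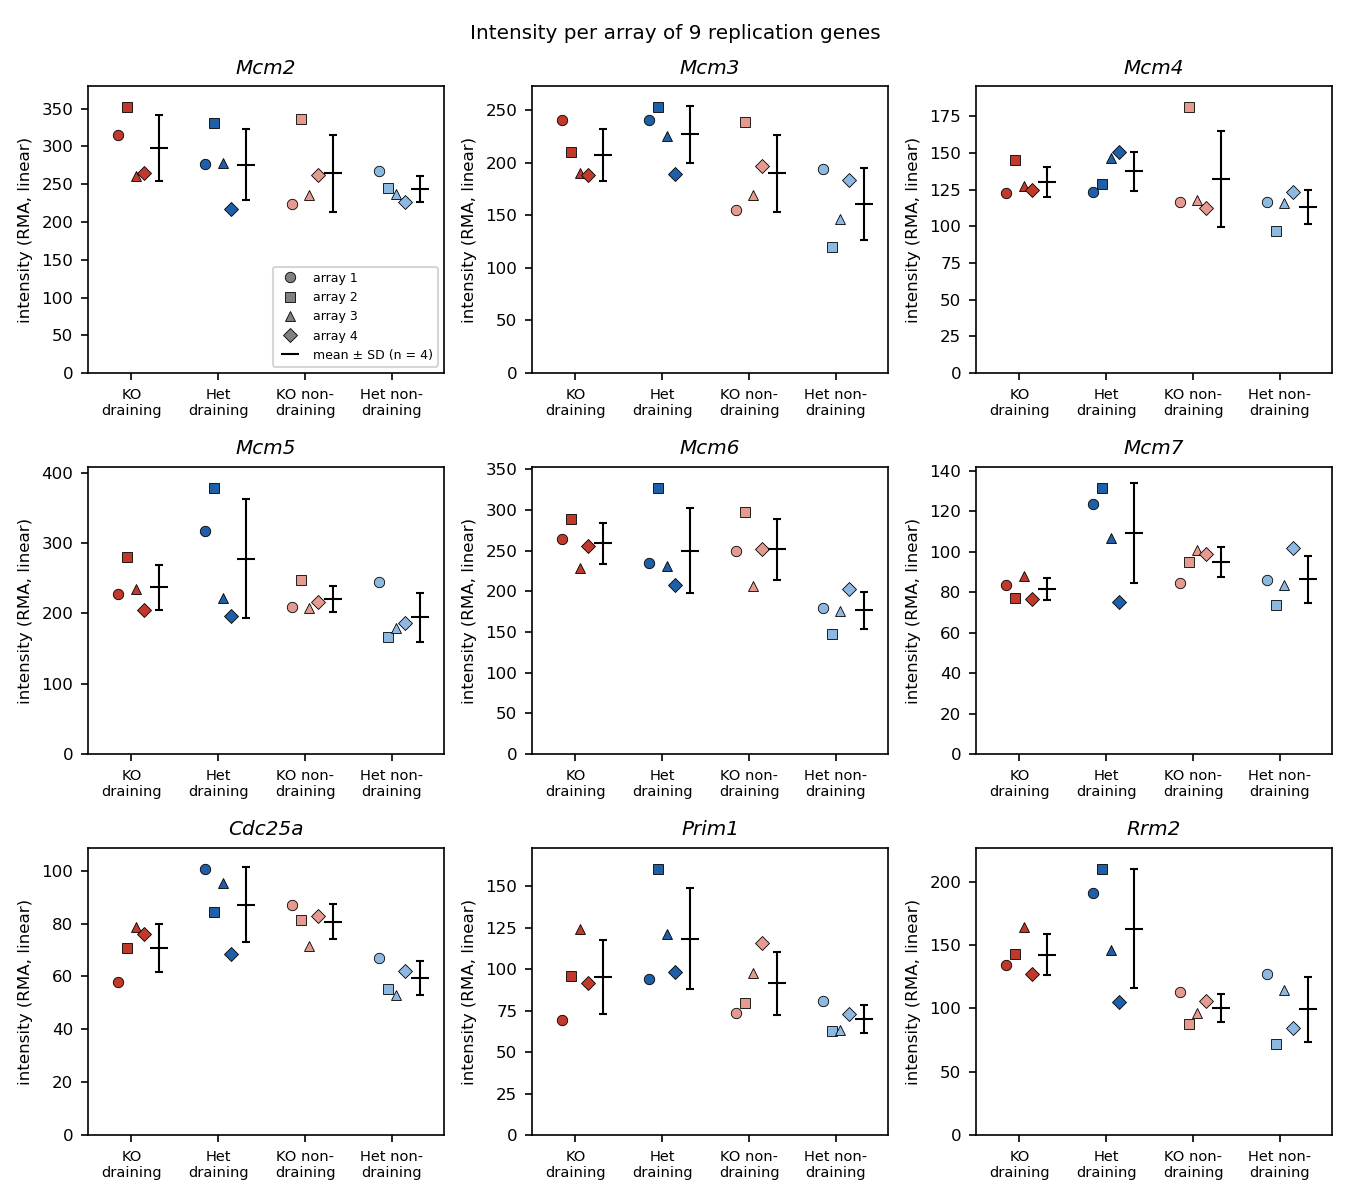
Intensity (RMA, linear, y axis from 0) of the helicase genes Mcm2 to Mcm7, the phosphatase gene Cdc25a, the primase gene Prim1 and the reductase gene Rrm2 in each array, with group mean ± SD (n = 4). Mcm6 is lowest in the 4 Het non-draining arrays, and Mcm2 overlaps between all groups.

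The sequence before these genes was described beside their levels. The 250 bases before the first start listed for each gene by RefSeq (GRCm38.p6) were searched. Of the 44 genes, 36 had such a sequence, 5 of them with several starts. The E2F letters searched were TTTCCCGC, TTTCGCGC, TTTGCCGC and TTTGGCGC, on both strands. They were found in 9 of the 36 (25.0%; Cdc25a, Cdc6, Cdk2, Mcm5, Mcm6, Mcm7, Orc1, Pola1 and Rfc3) and in 1.91% of all 27025 promoters. The letters CCAAT, the core of the NF-Y site, were found on either strand in 21 of the 36 (58.3%) and in 34.5% of all promoters. TTTGAA, the core of the CHR element of mitotic genes, was found in 3 of the 36 (8.33%) and in 16.3% of all promoters. The letters were not particular to the 44 genes. In the lists of other replication genes and mitosis genes counted below, E2F letters were found in 10 of 42 and 1 of 15 promoters. CCAAT was found in 21 of 42 and 13 of 15 of them, and TTTGAA in 7 of 42 and 6 of 15. A match is a description of letters and not a measured site. The promoters of Mcm3, Mcm5 and Mcm6 are shown for the node differences just given, and that of Prim1 for the largest one of the 44 in Het cells, so that genes with and without E2F letters can be compared. Capitals mark E2F letters and CCAAT on either strand (ATTGG is CCAAT on the other strand), and sequences run 5′ to 3′ on the strand of the gene.
Mcm3, chr1:20820313-20820562, strand minus: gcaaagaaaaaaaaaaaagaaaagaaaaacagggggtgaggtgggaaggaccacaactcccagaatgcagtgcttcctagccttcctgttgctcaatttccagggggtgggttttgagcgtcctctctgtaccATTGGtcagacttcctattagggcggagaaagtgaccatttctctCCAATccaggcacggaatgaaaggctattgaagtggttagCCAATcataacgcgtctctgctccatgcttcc
Mcm5, chr8:75109259-75109467, strand plus: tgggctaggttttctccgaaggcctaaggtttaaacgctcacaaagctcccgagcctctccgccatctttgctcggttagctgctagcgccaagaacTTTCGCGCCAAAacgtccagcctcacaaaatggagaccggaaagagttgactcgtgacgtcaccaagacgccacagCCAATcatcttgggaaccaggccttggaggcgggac
Mcm6, chr1:128359706-128359955, strand minus: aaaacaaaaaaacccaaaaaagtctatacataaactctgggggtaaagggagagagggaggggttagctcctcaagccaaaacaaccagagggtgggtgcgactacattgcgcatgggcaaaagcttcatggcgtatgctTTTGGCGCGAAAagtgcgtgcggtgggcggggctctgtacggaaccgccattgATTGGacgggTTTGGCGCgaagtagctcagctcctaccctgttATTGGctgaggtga
Prim1, chr10:128014965-128015214, strand plus: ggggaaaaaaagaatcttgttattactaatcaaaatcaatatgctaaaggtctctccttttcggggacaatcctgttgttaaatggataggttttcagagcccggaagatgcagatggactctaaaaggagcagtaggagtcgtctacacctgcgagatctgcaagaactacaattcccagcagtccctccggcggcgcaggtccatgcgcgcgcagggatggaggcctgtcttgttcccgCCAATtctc
In Mcm5 and in Mcm6, the run of 12 capitals holds a pair of overlapping E2F matches on opposite strands, and Mcm6 has a further one nearer the start. Mcm3 and Prim1 had CCAAT letters only, which says that the E2F letters searched are not in these windows and nothing about E2F itself. The Mcm5 sequence ends at the annotated gene boundary, 42 bases before the listed start. The annotated Cdc25a gene begins at chr9:109875518, so the last bases of its site below, with the end of the TTTGGCGC match, lie inside the gene. For Cdc25a, 30 bases with both kinds of letters, 85 to 56 bases before its listed start, were as follows.
Cdc25a, chr9:109875494-109875523, strand plus: cctgATTGGtgaattccgTTTGGCGCcaac

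Among the G1 to S control genes, Cdc25a had the smallest p in all 5 comparisons. CDC25A is the phosphatase that removes the inhibitory phosphate from CDK2 and lets cells enter S phase. Cdc25a gave 57.8, 70.7, 78.5 and 76.0 in KO draining and 101, 84.3, 95.2 and 68.3 in Het draining arrays, and 86.9, 81.2, 71.5 and 83.0 in KO non-draining and 67.1, 55.1, 53.0 and 61.9 in Het non-draining arrays. Het non-draining values lay below all values of the Het draining and KO non-draining groups, and the difference was 0.54 ± 0.13 between the nodes in Het cells and 0.44 ± 0.13 between KO and Het in the non-draining node. In the draining node the KO minus Het difference had the opposite sign (-0.29 ± 0.13), and the node difference in KO cells was -0.19 ± 0.13. Its interaction had the smallest p of the 44 genes. An unadjusted p under 0.05 was reached by 2.11% to 3.39% of all genes over the 5 comparisons. It was not reached by the cyclin E genes Ccne1 and Ccne2, which activate CDK2, the kinase gene Cdk2 itself or the factors E2f1 and E2f2. Their node differences ran from -0.09 to 0.24 in Het cells and from -0.12 to 0.16 in KO cells.

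The factors that activate the loaded helicase were positive for 4 of 4 genes between the nodes in Het cells (median 0.22) and for 3 of 4 in KO cells (median 0.03). None had an unadjusted p under 0.05 in either, where 3.29% of all genes had one in Het and 2.11% in KO cells. Cdc45, which binds MCM2-7 to form the active helicase, gave 103, 154, 116 and 96.7 in KO draining and 131, 136, 124 and 127 in Het draining arrays, and 127, 110.0, 89.6 and 117 in KO non-draining and 98.9, 117, 113 and 111 in Het non-draining arrays. All Het draining values of Cdc45 lay above all Het non-draining values, by a mean difference of 0.24 ± 0.13, while KO draining values ran across both. Gins1, a subunit of the GINS ring that joins them, gave 42.8, 66.2, 58.9 and 52.8 in KO draining and 52.9, 73.6, 71.6 and 59.3 in Het draining arrays, and 98.7, 39.1, 40.8 and 55.8 in KO non-draining and 59.3, 24.0, 45.8 and 52.1 in Het non-draining arrays. A single high value in KO non-draining 1 and a single low one in Het non-draining 2 gave Gins1 the largest spread of the set, with a standard error of 0.28. Mcm10, which helps the helicase to start, gave 55.0, 75.0, 61.4 and 54.8 in KO draining and 52.6, 79.9, 58.7 and 47.7 in Het draining arrays, and 52.1, 57.7, 52.8 and 58.5 in KO non-draining and 65.6, 54.6, 50.6 and 41.4 in Het non-draining arrays. The Mcm10 groups overlapped, with node differences of 0.14 ± 0.16 in KO and 0.16 ± 0.16 in Het cells.

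Among primase and polymerase genes, 6 of 7 were positive between the nodes in Het cells (median 0.22) and 3 of 7 in KO cells (median -0.01). Prim1 encodes the catalytic subunit of primase, which makes the RNA start of each new strand. Prim1 gave 69.3, 95.7, 124 and 91.5 in KO draining and 94.0, 160.1, 121 and 98.0 in Het draining arrays, and 73.5, 79.3, 97.4 and 115 in KO non-draining and 80.6, 62.9, 63.2 and 72.9 in Het non-draining arrays. Every Het draining value exceeded every Het non-draining value, and KO values of both nodes were spread over both ranges, with a node difference of 0.05 ± 0.19. Pola1, the catalytic subunit of the polymerase that works with primase, gave 87.2, 77.0, 70.0 and 60.4 in KO draining and 101, 81.6, 61.1 and 61.3 in Het draining arrays, and 62.2, 71.5, 65.8 and 58.1 in KO non-draining and 70.8, 55.9, 62.1 and 59.2 in Het non-draining arrays. Pola1 values overlapped in every comparison (0.18 ± 0.15 between the nodes in KO and 0.27 ± 0.15 in Het cells). The polymerase delta gene Pold1, which lengthens the lagging strand, had node differences of -0.01 ± 0.19 in both genotypes.

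For the clamp, clamp loader, single-strand binding and joining genes, 7 of 8 were positive between the nodes in Het cells (median 0.26) and 4 of 8 in KO cells (median -0.02). Pcna, the sliding clamp that holds polymerases on DNA, gave 1722, 2003, 2337 and 1961 in KO draining and 2206, 2087, 2094 and 1686 in Het draining arrays, and 2187, 2035, 2187 and 2232 in KO non-draining and 1951, 1867, 1869.5 and 1685 in Het non-draining arrays. KO non-draining values of Pcna all exceeded Het non-draining values (0.23 ± 0.10), while between the nodes it differed by -0.11 ± 0.10 in KO and 0.13 ± 0.10 in Het cells. A second Pcna probe set gave 0.23 between genotypes in the non-draining node. It was read on the same arrays at nearly the same mean intensity (1996 against 2007), so it is not an independent measure. Lig1, the ligase that seals lagging-strand fragments, gave 153, 172, 173 and 146 in KO draining and 182, 208, 152 and 153 in Het draining arrays, and 143, 137, 130.2 and 140.1 in KO non-draining and 146, 121, 140.4 and 149 in Het non-draining arrays. All draining values of Lig1 lay above all non-draining values within each genotype (0.22 ± 0.11 in KO, and 0.31 ± 0.11 in Het), and its interaction was -0.09 ± 0.15. Rpa2, a subunit of the protein that coats single-stranded DNA, gave 112, 148, 129.9 and 103 in KO draining and 160.1, 197, 139 and 109 in Het draining arrays, and 90.3, 128, 125 and 115 in KO non-draining and 117, 99.4, 114 and 124 in Het non-draining arrays. Het draining 1 to 3 exceeded all Het non-draining arrays for Rpa2 and Het draining 4 did not (0.38 ± 0.16).

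The 5 nucleotide supply genes all had a positive node difference in both genotypes, with medians of 0.11 in KO and 0.29 in Het cells. Rrm2 encodes the small subunit of ribonucleotide reductase, which is made in S phase and limits the supply of deoxynucleotides. Rrm2 gave 134, 143, 164 and 127 in KO draining and 191, 209.7, 146 and 105 in Het draining arrays, and 113, 87.5, 96.3 and 105 in KO non-draining and 127, 71.6, 115 and 84.2 in Het non-draining arrays. Every KO draining value exceeded every KO non-draining value (0.50 ± 0.20), and 3 of 4 Het draining values exceeded all Het non-draining ones (0.70 ± 0.20). The interaction of Rrm2 was -0.20 ± 0.28. Tk1, the thymidine salvage kinase, gave 157, 225, 192 and 183 in KO draining and 219, 226, 189.5 and 183 in Het draining arrays, and 179.8, 177, 166 and 173 in KO non-draining and 188, 159, 166 and 155 in Het non-draining arrays. Its node difference was 0.11 ± 0.11 in KO and 0.29 ± 0.11 in Het cells, and a dimmer Tk1 probe set gave -0.04 and 0.46. Tyms, the enzyme that makes thymidylate, gave 152, 233, 253 and 229 in KO draining and 296, 262, 223 and 175 in Het draining arrays, and 162, 239, 208 and 251 in KO non-draining and 204, 151, 223 and 183 in Het non-draining arrays. Tyms groups overlapped in every comparison, and its node difference was 0.00 ± 0.19 in KO and 0.32 ± 0.19 in Het cells.

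The genes that restore chromatin behind the fork were higher in the draining node of Het cells for 3 of 3 genes, with a median of 0.51, and had a median of 0.07 in KO cells. Chaf1b, the middle subunit of the CAF-1 histone chaperone, gave 109.7, 73.2, 74.0 and 79.1 in KO draining and 111, 107, 106 and 91.3 in Het draining arrays, and 82.5, 89.9, 68.2 and 76.3 in KO non-draining and 84.5, 83.0, 57.6 and 69.2 in Het non-draining arrays. All Het draining values exceeded all Het non-draining values (0.51 ± 0.14), and of the KO draining arrays only array 1 reached the Het draining range. Uhrf1, which brings the maintenance methyltransferase to newly copied DNA, gave 159.7, 126, 114 and 119.8 in KO draining and 138, 193, 154 and 94.0 in Het draining arrays, and 141, 149, 111 and 116 in KO non-draining and 86.9, 82.3, 112 and 103 in Het non-draining arrays. Het draining 4 fell within the Het non-draining range of Uhrf1 (0.55 ± 0.18), and 3 of 4 KO non-draining arrays were at 116 or above, against a highest Het non-draining value of 112. Chaf1a, the large CAF-1 subunit, gave 136, 176, 113 and 129 in KO draining and 175, 135, 137 and 123 in Het draining arrays, and 126, 125, 105 and 125 in KO non-draining and 157, 110.0, 101 and 113 in Het non-draining arrays. Chaf1a overlapped in every comparison, with node differences of 0.19 ± 0.15 in KO and 0.25 ± 0.15 in Het cells.

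**Figure D4:**
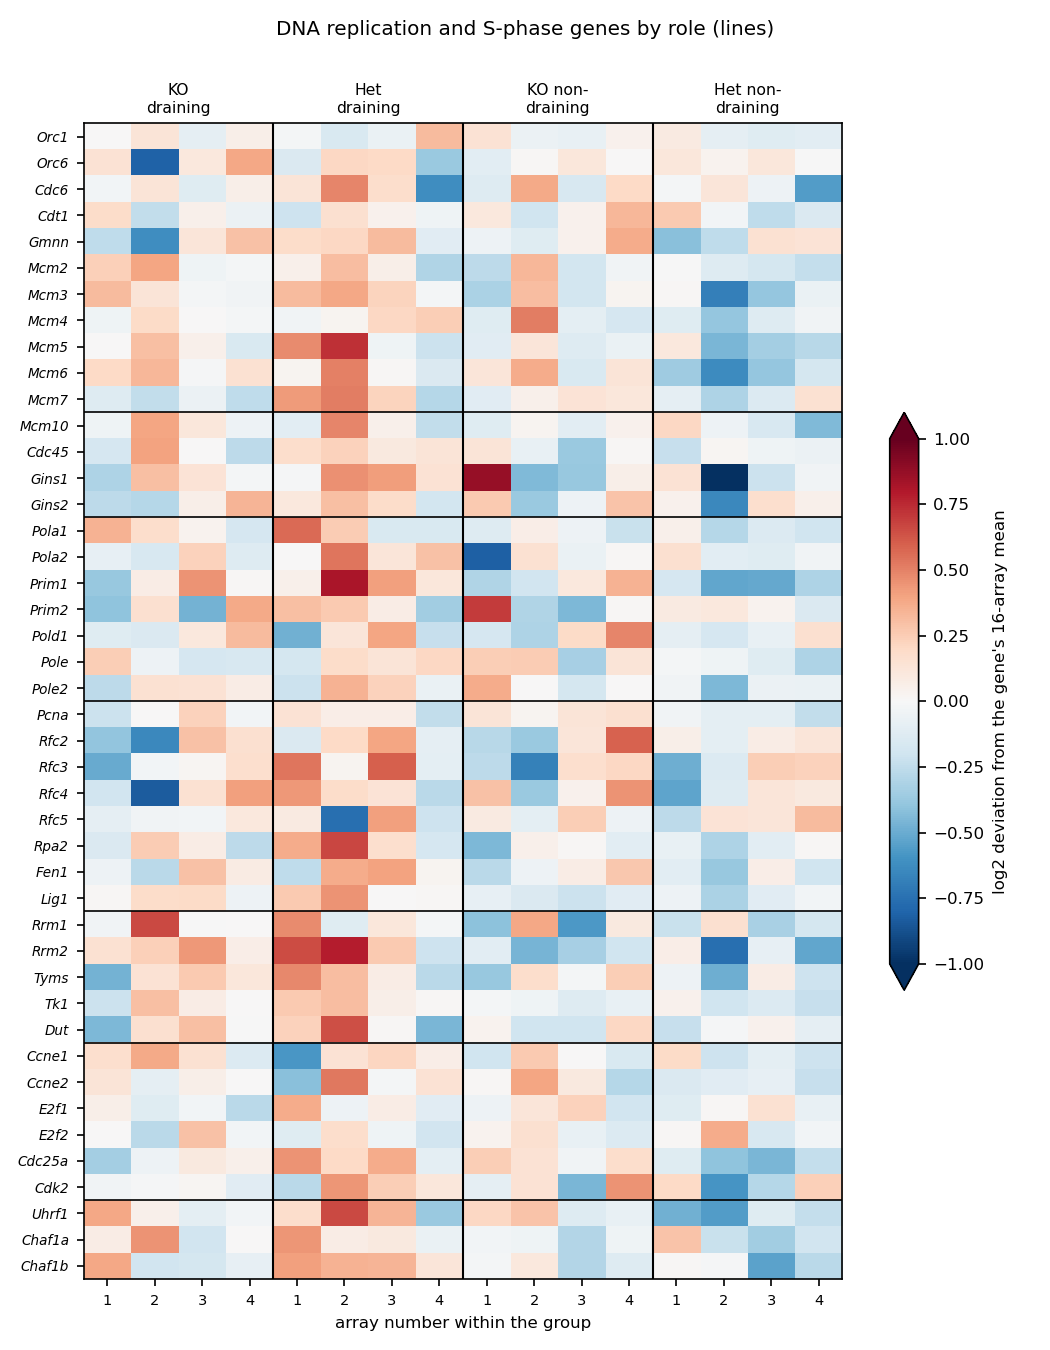
Log2 deviation of each of the 44 genes (rows, by role, separated by lines) from its own mean over 16 arrays, in each array (columns, by group and array number), with red above and blue below the mean. Het draining 2 is red for 40 genes and Het non-draining 2 is red for 8, and KO arrays are mixed.

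The 23 genes not given array by array had no unadjusted p under 0.05 in any comparison, where 2.11% to 3.39% of all genes had one. They were left after the gene of smallest p for each role and comparison was named, so this follows largely from the choice. Among them were the clamp loader genes Rfc2 to Rfc5, the flap nuclease gene Fen1, the large reductase subunit gene Rrm1, the dUTPase gene Dut and the polymerase epsilon gene Pole. Node differences of the 23 genes ran from -0.22 (Rfc4) to 0.28 (Rrm1) in KO cells and from -0.19 (Rfc5) to 0.30 (Rfc3) in Het cells. Between genotypes they ran from -0.35 (Rfc3) to 0.18 (Ccne1) in the draining node and from -0.16 (Pola2) to 0.21 (Rfc4) in the non-draining node, and interactions ran from -0.45 (Rfc4) to 0.13 (Rfc5).

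Between genotypes, most of the 44 genes stood lower in KO than in Het cells in the draining node, and higher in the non-draining node. In the draining node 35 of 44 genes were lower in KO, where 50.9% of all genes were and 49.1% were higher, with a median of -0.12 against -0.00 over all genes. Mcm7, Cdc25a and Chaf1b, the 3 with an unadjusted p under 0.05, were lower in KO, where 3.39% of all genes reached that level, 1.69% higher and 1.70% lower. None of the 44 separated the groups without overlap, where 0.838% of all genes did so upwards and 0.747% downwards. The count of 3 was 0 without Het draining 1 or Het draining 2 and 1 without Het draining 3, and the median was -0.07 without Het draining 2 and -0.08 without KO draining 1. With the first 2 arrays of each group alone the median was -0.21, and with the other 2 alone it was -0.014. By role, medians ran from -0.18 for clamp and joining genes to -0.04 for licensing genes, and Ccne1 (0.18), Mcm2 (0.12) and Rfc5 (0.10) were the highest in KO. In this comparison 10 of 11 T cell markers (median 0.27) and 10 of 11 B cell markers (median 0.13) were higher in KO, and 5 of 10 cDC1 markers were (median -0.01).

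In the non-draining node 35 of 44 genes were higher in KO, where 51.9% of all genes were and 48.1% were lower, with a median of 0.11 against 0.00 over all genes. Mcm6, Cdc25a, Uhrf1 and Pcna, the 4 with an unadjusted p under 0.05, were higher in KO, where 2.48% of all genes reached that level, 1.30% higher and 1.18% lower. Mcm6, Pcna and Cdc25a separated the groups without overlap, where 1.20% of all genes did so upwards and 1.19% downwards. The count was 2 (3.02% of all genes) and the median 0.06 without Het non-draining 2, and the median was 0.07 without KO non-draining 4. It was 0.09 with the first 2 arrays of each group alone and 0.08 with the other 2. All 6 MCM2-7 genes were positive, from 0.10 for Mcm2 to 0.50 for Mcm6, and the lowest gene of the 44 was the polymerase alpha subunit gene Pola2 (-0.16). Here all 11 T cell markers were lower in KO (median -0.29), while all 11 B cell markers (median 0.33) and all 10 cDC1 markers (median 0.22) were higher.

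Replication genes outside the 44 were counted from a separate list of 51, of which 48 were measured. In Het cells 37 of 48 were higher in the draining node (median 0.14), where 52.8% of all genes were. An unadjusted p under 0.05 was reached by 8 of the higher ones and none of the lower ones, where 3.29% of all genes reached it. These 8 were led by the chromatin ATPase gene Atad2 (0.52 ± 0.12) and the S-phase cyclin gene Ccna2 (0.75 ± 0.24). In KO cells 27 of 48 were higher (median 0.02), where 50.7% of all genes were. The helicase paralogue gene Mcm9 (0.25 ± 0.10) and the origin gene Orc5 (0.61 ± 0.27) were the 2 under 0.05, where 2.11% of all genes were. Between genotypes the smallest p belonged to Atad2 (-0.41 ± 0.12) and the origin firing gene Ticrr (-0.49 ± 0.22) in the draining node. There 35 of 48 were lower in KO (median -0.07), as were 50.9% of all genes. In the non-draining node 28 of 48 were higher in KO (median 0.01), as were 51.9% of all genes. The smallest p there belonged to the remodeller gene Hells (0.31 ± 0.13) and the fork protection gene Timeless (0.30 ± 0.13). The interaction was negative for 38 of 48 with a median of -0.12, where 52.3% of all genes were negative. None was under 0.05, where 2.32% of all genes were. Its smallest p were those of Atad2 (-0.35 ± 0.18) and the helicase gene Recql4 (0.30 ± 0.16). None of these genes passed over all genes.

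Mitosis genes were counted on the same arrays. Of 17 measured, 17 were higher in the draining node of Het cells, with a median of 0.43 and 9 at an unadjusted p under 0.05 (3.29% of all genes), and 10 of 17 were so in KO cells, with a median of 0.00 and 1 under 0.05 (2.11% of all genes). Between genotypes, 16 of 17 were lower in KO in the draining node (median -0.22, 4 under 0.05, against 3.39% of all genes), and 14 of 17 were higher in the non-draining node (median 0.16, none under 0.05, against 2.48% of all genes). Their interaction median was -0.42, with 16 of 17 negative and 6 under 0.05 (2.32% of all genes).

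Marker lists of cDC1 and of other cells were shifted in median in some of the same comparisons, though no marker passed the adjusted test. In Het cells, T cell markers were lower in the draining node for 10 of 11 measured genes, with a median of -0.41 and summed intensities of 1483 to 2580 in Het draining against 1557 to 2908 in Het non-draining arrays. In KO cells they were higher in the draining node for 11 of 11 (median 0.24), with sums of 1735 to 3038 in KO draining and 1093 to 2767 in KO non-draining arrays. By their medians, T cell markers and replication genes had opposite signs between the nodes of Het cells, between genotypes in each node and in the interaction. Between the nodes of KO cells both medians were positive (0.24 and 0.01). In single arrays the median deviations had like signs in some, such as Het draining 3 and 4 and Het non-draining 2, and opposite signs in others, such as Het draining 1 and 2. B cell markers, higher in KO than in Het non-draining arrays, had sums of 1196 to 1478 in KO and 844 to 1354 in Het. The 10 cDC1 markers had sums of 13181 to 17798 in KO and 10823 to 15710 in Het in that comparison. Between the nodes, 9 of 10 cDC1 markers were lower in draining arrays of KO cells (median -0.08), and 8 of 10 were higher in draining arrays of Het cells (median 0.20), the direction of the replication genes in Het cells. Of the other lists, the median node difference was 0.08 in KO and 0.11 in Het cells for 5 plasma cell markers, -0.10 and -0.07 for 6 macrophage and monocyte markers, -0.01 and 0.13 for 4 plasmacytoid dendritic cell markers, and -0.18 and -0.08 for 4 NK cell markers. The lowest value over all probe sets was 3.327, so an intensity above 0 does not show that a marker was expressed. Some markers lay below the array medians of 38.6 to 40.8, such as Klrb1c, with group means of 10.3 to 10.7, Mertk (17.7 to 20.1) and Tnfrsf17 (18.3 to 20.5). The part that cells of these types have in the replication gene differences was not tested.

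**Figure D5:**
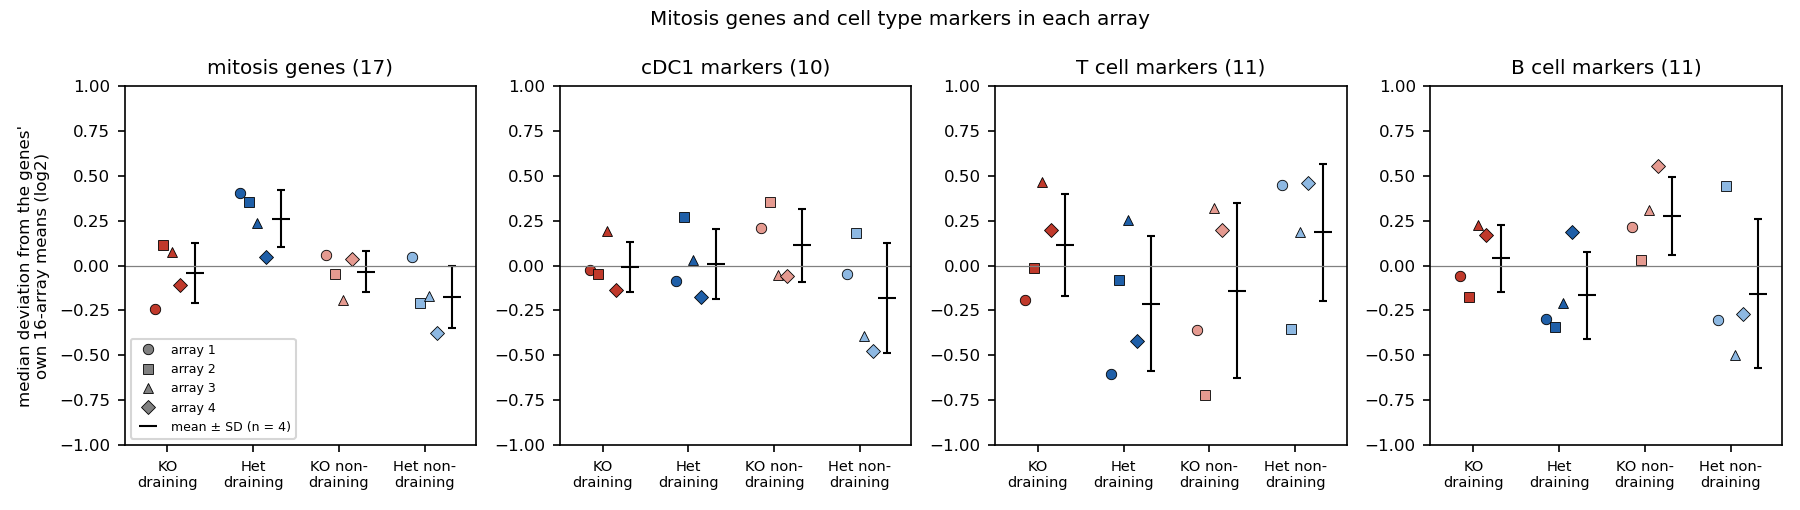
Median deviation from the genes' own means over 16 arrays (log2, y axis) in each array for mitosis genes and for cDC1, T cell and B cell markers, with group mean ± SD (n = 4). Mitosis genes are above 0 in all 4 Het draining arrays, and T cell markers are below 0 in Het draining 1, 2 and 4.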

How the data were processed

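Expression was measured in sorted cDC1 with Affymetrix Mouse Gene 1.0 ST arrays, 16 arrays in 4 groups of 4. The deposited values are probe set intensities on a linear scale, from 3.327 to 16300.089, which the authors computed by RMA (credited to the submitters' processing notes). The program behind it was not given in the sources used here. As a method, RMA corrects background and equalises arrays, and it draws dim differences towards 0.

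Of 35556 probe sets, 21789 had 1 gene symbol in GEO's platform annotation, 1621 several and 12146 none; 21698 were matched by gene ID to RefSeq GRCm38.p6. The brightest probe set stood for each of 19938 genes. Intensity + 1 was taken to log2 and fitted with limma 3.58.1 in R 4.3.3 (lmFit and eBayes, 1 coefficient per group, 12 residual degrees of freedom), with Benjamini-Hochberg adjustment over all genes at 0.05, two-sided, in 5 comparisons. The median standard error was 0.12, and 0.18 for the interaction; the number of arrays limits the precision. The fit was tried on simulated arrays drawn independently of each other. They lack the shared deviations of same-numbered arrays given below, so the trial does not check the fit for such arrays. Tables were handled in Python 3.11.15, and matplotlib 3.10.9 made the figures.

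The 44 genes, the lists and the rule for naming genes were chosen with earlier results of these data known. Named array by array are Mcm2 to Mcm7, Pcna, Rrm2 and, per role and comparison, the gene of smallest p; other replication genes are named for the 2 smallest p per comparison, and mitosis genes and cell markers are counted. Same-numbered Het arrays deviated together (r from 0.20 to 0.31 over genes). Every other pair of groups held a number under 0.1, but other numbers there were higher, up to 0.48 between the nodes of KO cells. Over all pairs of groups the median r was 0.22 for the same number and -0.11 for other numbers. The labels state no pairing, so the main fit paired no arrays, and replicate blocks were used as alternatives only. Alternatives were the pseudocount, a filter on dim genes, quantile normalization, all probe sets of a gene, the prior, array weights, only the groups compared, replicate blocks, arrays 1 and 2 or 3 and 4, and each array left out. A block in the Het arrays alone was added after seeing the data.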

Additional observations from a re-analysis of the deposited data

Results flagged for a closer look

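Each of 22 measures, the 21 genes given array by array and the median deviation of the 44 genes, was looked at in each of the 4 groups for an array far from the other 3, which made 88 group checks, and chance marks about 1 in 20 of such checks. The marks were 2. Mcm4 was 181 in KO non-draining 2, where the other KO non-draining arrays were between 113 and 118. Chaf1a was 105 in KO non-draining 3, where the others were between 125 and 126. The gap to the nearest array, as a share of the range of the group, was 0.898 for Mcm4 and 0.944 for Chaf1a (Dixon's test).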

How the results depend on the processing

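No replication gene passed an adjusted p of 0.05 under any alternative, replicate blocks included. Over the alternatives other than leaving out 1 array, 153 summary values stayed and 12 moved, and for single genes 449 kept their direction and 4 were reversed. The numbers of adjusted calls, none in any setting, are among those that stayed. Replicate blocks, the prior and the fit of only the groups compared leave each difference as it was, so no direction could reverse there. A median was said to stay if it shifted by less than 0.10, the pooled SD of array medians within groups. A small median could therefore come near 0 or change sign and still be said to stay. Counts below are genes of the 44 at an unadjusted p under 0.05, with the share of all genes at that level in parentheses. Where 1 array was left out, the share is a range. With arrays 1 and 2 only, the counts were 6 (5.78%) between genotypes in the draining node, against 3 (3.39%) with all arrays, and 0 (4.32%) between nodes in KO cells, against 1 (2.11%), and the interaction median was -0.33. With arrays 3 and 4 only, the draining node median between genotypes was -0.014, the interaction median was -0.13 and its count 3 (4.15%), against 6 (2.32%) with all arrays. The interaction count was also 3 with dim genes left out (1.91%), with quantile normalization (2.89%) and with the trended robust prior (2.33%). Between nodes in KO cells the count was 3 with only the groups compared (1.70%), 2 with the random replicate block (3.56%) and 2 with array weights (2.78%). Those reversed were all with arrays 3 and 4 only, namely Tk1 between genotypes in the draining node (0.0070), Gins1 between genotypes in the non-draining node (-0.035), Cdc25a between nodes in KO cells (0.0047) and Mcm7 between nodes in Het cells (-0.041). The cause was not tested. A difference of 2 groups does not depend on arrays outside them, so many directions could not change when such an array was dropped. Most of the genes were also chosen for a small p in these data. Within these limits, which make it a weak check, leaving out 1 array at a time kept every direction of single genes (656 values). Counts then ran from 0 to 4 (3.02% to 4.39%) between genotypes in the draining node and 2 to 5 (2.12% to 3.19%) in the non-draining node. They ran from 0 to 2 (1.82% to 4.06%) between nodes in KO cells and 8 to 15 (2.92% to 4.86%) in Het cells. For the interaction they ran from 2 to 8 (2.03% to 3.00%). Medians ran from -0.17 to -0.07, 0.06 to 0.15, -0.03 to 0.06, 0.21 to 0.31 and -0.29 to -0.15 in the same order. For the pairing in Het cells, the count was 12 (3.29%) without a block and 13 (4.59%) with the number as a fixed replicate block. It was 14 (5.96%) with that block in the Het arrays alone and 13 (5.09%) with the random replicate block. Both the count and the share of all genes rose with a block. No gene of the 44 was called at an adjusted p of 0.05 with or without one.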
